A study of Mus musculus with 6 samples.

Results

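Glycolysis genes, among them the germ cell forms Pgk2 and Ldhc, were followed in leptotene/zygotene (L/Z) spermatocytes from control and Eef1g-cKO mouse testes. These spermatocytes are germ cells in the first stages of meiotic prophase. The 10 genes were taken by symbol: Hk1, Hk2, Pfkp, Aldoa, Gapdh, Pgk1, Pgk2, Pkm, Ldha and Ldhc. They occupied 11 of the 54532 rows of the count table, since Aldoa is listed under 2 gene IDs, and 9 of these rows held at least 1 read. Cells were sorted by flow cytometry at 12 dpp (days postpartum), with n = 3 libraries per genotype. Controls, labelled wild type, were littermates of Eef1g-cKO males, in which a floxed Eef1g, the gene of a translation elongation factor subunit, is recombined by Stra8-GFPCre in male germ cells from type A spermatogonia onwards. Somatic cells of the cKO testis therefore keep the gene.

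Glycolysis splits glucose into pyruvate. Hexokinases (Hk1, Hk2) trap glucose in the cell, phosphofructokinase (Pfkp) commits it to the pathway, aldolase (Aldoa) splits the sugar, Gapdh and phosphoglycerate kinase (Pgk1, Pgk2) carry out the oxidation and the first ATP-yielding step, pyruvate kinase (Pkm) makes pyruvate, and lactate dehydrogenase (Ldha, Ldhc) interconverts pyruvate and lactate. Pgk2 is an intronless copy of the X-linked Pgk1, and Ldhc is the lactate dehydrogenase of male germ cells. Pgk1 is silenced with the X chromosome during male meiosis, and spermatocytes are known to draw on lactate that Sertoli cells supply.

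The germ cell forms stand in different genomic settings, and the promoters of the genes that fell and of the Pgk pair are shown for that comparison. In GRCm38, Pgk1 lies at chrX:106187100-106203699 on the plus strand with 11 exons in its principal transcript, and Pgk2 at chr17:40207015-40208640 on the minus strand with 1 exon. Ldha (chr7:46841475-46855627) and Ldhc (chr7:46861203-46878142) are neighbours on the plus strand, 5575 bases apart, with 8 exons each. Hk2 lies at chr6:82725025-82774454 and Aldoa at chr7:126795234-126800751, both on the minus strand. The sequences below are 300 bases each, 250 before and 50 after the start site, from RefSeq on GRCm38.p6. All 10 genes matched that table, and for Aldoa 1 of 3 start windows is shown. Capitals mark ACGTG on either strand, the core bound by hypoxia-inducible factor.
Hk2 promoter (chr6:82774405-82774704, minus strand): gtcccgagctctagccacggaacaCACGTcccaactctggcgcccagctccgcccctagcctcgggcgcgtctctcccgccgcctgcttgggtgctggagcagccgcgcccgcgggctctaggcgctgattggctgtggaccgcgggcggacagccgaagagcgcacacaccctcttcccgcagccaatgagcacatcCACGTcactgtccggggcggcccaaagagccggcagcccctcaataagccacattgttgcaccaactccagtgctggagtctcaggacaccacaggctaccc
Aldoa promoter (chr7:126799129-126799428, minus strand): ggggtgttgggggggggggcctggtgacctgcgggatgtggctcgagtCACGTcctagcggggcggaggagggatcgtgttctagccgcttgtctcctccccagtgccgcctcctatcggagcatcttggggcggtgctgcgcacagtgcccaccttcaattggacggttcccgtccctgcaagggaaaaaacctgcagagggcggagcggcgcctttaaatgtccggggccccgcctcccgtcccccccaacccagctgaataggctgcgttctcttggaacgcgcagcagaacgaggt
Pgk1 promoter (chrX:106186850-106187149, plus strand): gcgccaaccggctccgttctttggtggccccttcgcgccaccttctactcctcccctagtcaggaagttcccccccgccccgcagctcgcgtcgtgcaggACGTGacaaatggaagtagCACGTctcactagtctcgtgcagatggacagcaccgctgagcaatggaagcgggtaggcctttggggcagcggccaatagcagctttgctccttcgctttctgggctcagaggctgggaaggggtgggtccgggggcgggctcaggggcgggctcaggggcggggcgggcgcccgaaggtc
Pgk2 promoter (chr17:40208560-40208859, minus strand): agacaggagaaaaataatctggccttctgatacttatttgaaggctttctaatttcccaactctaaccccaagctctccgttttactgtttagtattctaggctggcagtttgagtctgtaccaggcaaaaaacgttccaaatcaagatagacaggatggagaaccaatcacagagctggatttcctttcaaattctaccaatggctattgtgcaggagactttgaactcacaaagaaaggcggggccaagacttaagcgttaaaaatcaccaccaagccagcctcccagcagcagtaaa

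ACGTG was found in the Hk2 window 2 times, in the Aldoa window once, in the Pgk1 window 2 times and not in the Pgk2 window. Among windows not shown, a Ldha window held it 5 times and a Hk1 and a Pkm window 2 times each. In that Ldha window 2 stretches of CACGTG were each counted on both strands. The Gapdh window and another Aldoa window held it once, the Aldoa match being the same site as in the overlapping window shown. The remaining Hk1, Pkm, Ldha and Aldoa windows and those of Pfkp and Ldhc had no ACGTG. Of 32851 promoters of the same length, 19.6% held it. GCGTG, the other form of the core, was found in none of the 4 windows shown and in 32.4% of all promoters. The E-box CACGTG, which contains ACGTG, was absent from the 4 windows and present in 7.15% of all promoters, and TATAAA was absent from the 4 and present in 13.6%. GC content was 67.3% in the Hk2 window, 65.7% in the Aldoa window, 66.7% in the Pgk1 window and 43.0% in the Pgk2 window. These matches are a description of letters and not of bound sites.

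The libraries held 763133 to 2617648 reads, so the 3 reads taken as the detection floor equalled 1.18 to 4.63 CPM (reads per 1000000 of the TMM-scaled library), the highest value belonging to Eef1g-cKO replicate 3. The targeted gene Eef1g stood at 222, 226 and 212 CPM in controls and at 139, 151 and 119 CPM in Eef1g-cKO, below every control (log2FC, the log2 ratio of Eef1g-cKO to control, −0.68 ± 0.20 (SE), adjusted p = 0.0290 by edgeR, n = 3 per genotype). Counts over the whole gene include exons outside the deleted ones. Sycp3, the lateral element protein that defines meiotic prophase cells, was at 1237 to 1454 CPM in controls and 2693 to 3234 CPM in Eef1g-cKO. The summed level of 11 L/Z markers was 8881 to 9747 CPM in controls and 18011 to 22285 CPM in Eef1g-cKO, with 6 of 11 tested markers higher and 1 lower. The labels name the 3 samples of a genotype as replicates without naming animals, so p-values measure the spread between these samples, which may be technical. In bulk RNA, fewer cells of a type and less RNA per cell cannot be told apart.

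Levels of the 10 genes spread widely in control L/Z spermatocytes, and the germ cell form was the higher of the pair for lactate dehydrogenase but not for phosphoglycerate kinase. By level per length (CPM per kilobase of gene length), the control order was Hk2 at 9.35 ± 1.99, Aldoa at 8.20 ± 0.88, Ldhc at 7.90 ± 3.88, Pgk1 at 4.70 ± 1.80 and Pkm at 3.99 ± 0.54 (SD, n = 3). Neighbours among these 5 had overlapping ranges. Ldha followed at 1.62 ± 0.60 CPM per kilobase, below every value of Pkm, and Hk1 at 0.56 ± 0.40, below every value of Ldha. Pfkp closed the detected genes at 0.37 ± 0.32, overlapping Hk1. Gapdh, Pgk2 and the second Aldoa entry were listed at 0 in all 3 control libraries. Hk2 stood at the percentile 80.0 of all detected genes in controls, and Pkm at 68.5.

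In Eef1g-cKO the order of levels per length was led by Ldhc at 5.02 ± 4.74, Pgk1 at 4.30 ± 4.56 and Pkm at 2.88 ± 0.90 CPM per kilobase, with Hk2 next at 1.47. Aldoa, second in controls, was seventh at 0.269 CPM per kilobase. Every gene in the cKO order overlapped its neighbour, so neighbouring ranks there are not separated by the spread between libraries. Ranks further apart can be, as Pkm, at 2.16 CPM per kilobase or more, lay above every value of Pfkp.

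**Figure D1:**
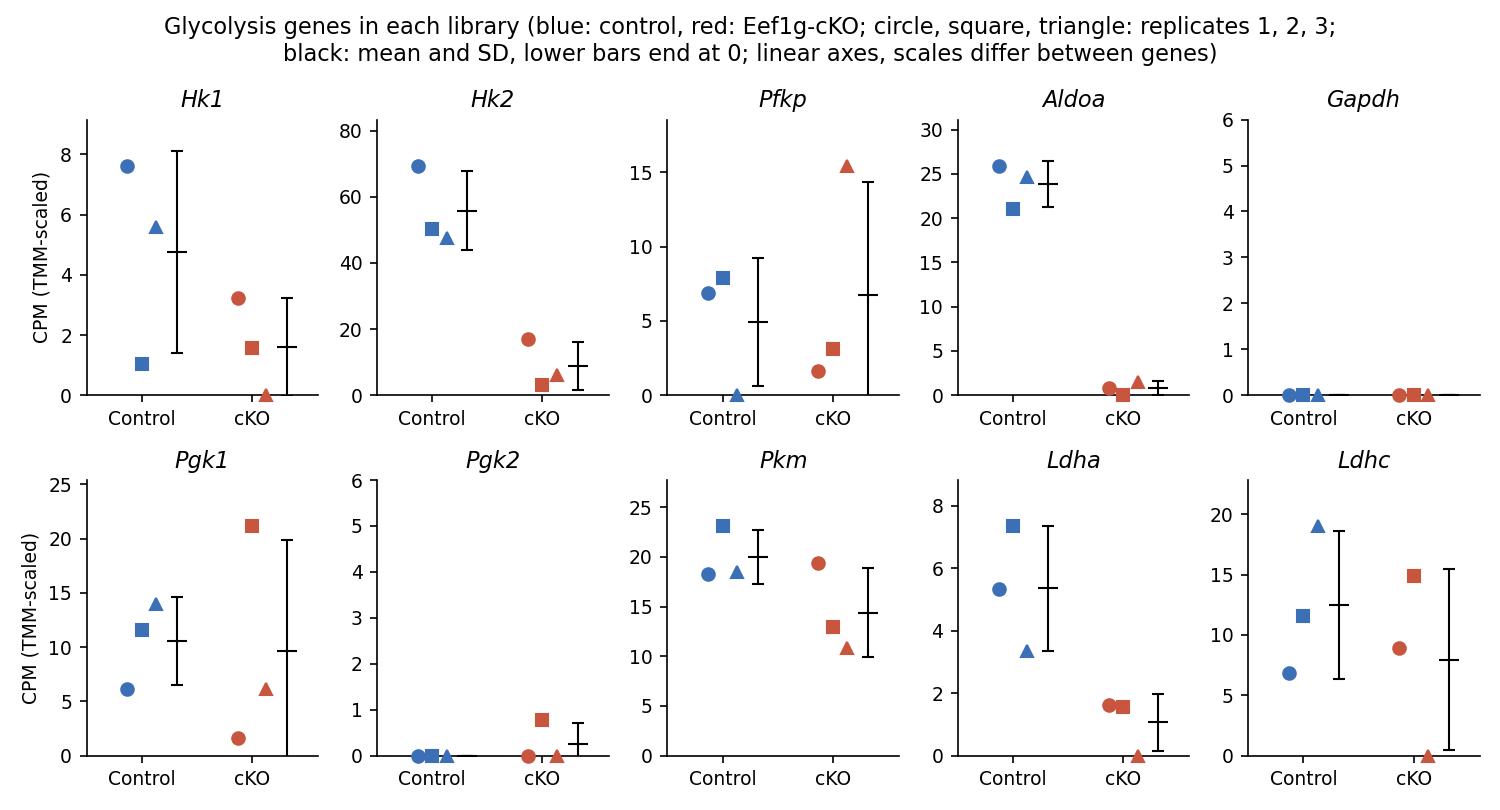
CPM of the 10 glycolysis genes in each library, 1 panel per gene with its own linear axis from 0, blue for control and red for Eef1g-cKO, with the mean and SD in black (n = 3). Hk2 and Aldoa were lower in every Eef1g-cKO library than in every control library, whereas Pgk1, Pkm, Ldhc and Pfkp overlapped between genotypes and Gapdh was listed at 0 throughout.

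Of the 10 genes, 6 passed the filter on low counts and were tested. None was called higher and 2 were called lower, Hk2 and Aldoa, at an adjusted p under 0.05 by edgeR's quasi-likelihood test. Over all 8513 tested genes 6.01% were called lower and 7.80% higher, and at an unadjusted p under 0.05 the 6 genes gave the same 2 lower and 0 higher, against 13.2% lower and 14.3% higher over all tested genes. DESeq2 likewise called 0 higher. Both lower genes also had a log2 fold change under −1, as did 4.96% of all tested genes. Hk2 and Aldoa passed the filter through their control libraries, so the count of 2 is a description and not support. The log2 fold changes of the 6 genes had a median of −0.49, against −0.05 over all tested genes. Of the 6, 5 were negative, with Pgk1 at only −0.04, as were 4469 of all 8513 tested genes.

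Hk2, the hexokinase bound to mitochondria in many growing cells, was the most read of the 10. It had 91, 96 and 85 reads in control replicates 1 to 3 and 21, 8 and 4 in Eef1g-cKO replicates 1 to 3, or 69.5, 50.4 and 47.6 CPM against 17.0, 3.14 and 6.18 CPM. Every Eef1g-cKO library lay below every control library. The mean fell from 55.8 ± 11.9 to 8.77 ± 7.28 CPM (SD, n = 3), and log2FC was −2.71 ± 0.54 (SE, adjusted p = 0.00252 by edgeR). Without Eef1g-cKO replicate 1, the highest of the 3, the log2 fold change was −3.73. No 75-base stretch of its principal transcript occurred in another gene's transcripts.

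Hk1, the other hexokinase, was near the floor. Its reads were 10, 2 and 10 in controls and 4, 4 and 0 in Eef1g-cKO, and the CPM values of the genotypes overlapped. It did not pass the filter, and fitted without one its log2FC was −1.35 ± 1.45 (SE, adjusted p = 0.579 by edgeR). The log2 ratio of Hk2 to Hk1 reads within a library, with 0.5 added to each count, averaged 3.81 ± 1.27 in controls and 2.11 ± 1.13 in Eef1g-cKO (SD, n = 3), a difference of −1.69 (exact 2-sided permutation test, p = 0.3, adjusted over 3 ratios p = 0.45). With 3 libraries against 3 this test cannot go below 0.1.

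Pfkp, the platelet-type phosphofructokinase, overlapped between genotypes. It had 9, 15 and 0 reads in controls and 2, 8 and 10 in Eef1g-cKO, which in CPM is 6.87, 7.87 and 0 against 1.62, 3.14 and 15.4. The highest and the lowest value of the gene came from replicate 3 of the genotypes, and the groups overlapped (log2FC 0.28 ± 1.15 (SE), adjusted p = 0.905 by edgeR). The sign turned to −0.93 without Eef1g-cKO replicate 3 and to −0.28 without control replicate 3. Of its exon bases, 5.58% overlap Pitrm1 on the opposite strand.

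Aldoa, the aldolase of muscle and most growing tissues, was close to 0 in the Eef1g-cKO libraries. It had 34, 40 and 44 reads in controls and 1, 0 and 1 in Eef1g-cKO, or 26.0, 21.0 and 24.6 CPM against 0.81, 0 and 1.54 CPM. The control libraries were within a narrow range, and all 3 Eef1g-cKO libraries were at or under the floor of 3 reads. The level of 23.9 ± 2.56 CPM (SD, n = 3) in controls was 8.69 times the mean per-library floor of the Eef1g-cKO libraries, 2.75 CPM. The fitted log2 fold change was −5.36 ± 0.95 (SE, edgeR adjusted p = 0.00102), and its size depends on the prior count. Of its 75-base windows, 1.53% occurred in another gene. The second entry named Aldoa had no read in any library.

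**Figure D2:**
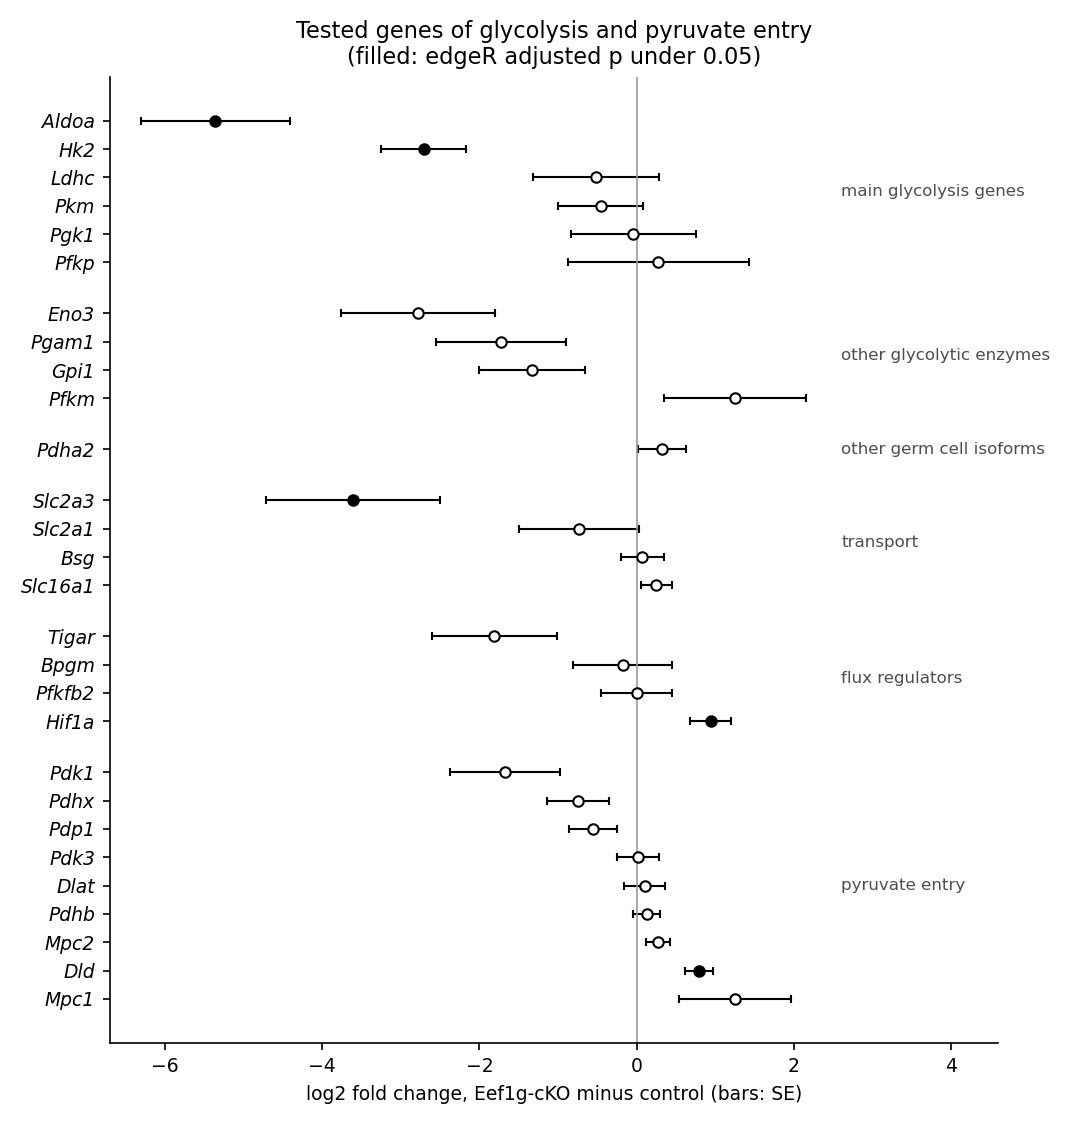
Log2 fold change (Eef1g-cKO minus control) with its standard error for each tested gene, grouped by list, with filled points for an edgeR adjusted p under 0.05. Aldoa at −5.36, Hk2 at −2.71 and Slc2a3 at −3.61 lie far to the left, while Dld at 0.79 and Hif1a at 0.94 are the filled points on the right.

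Gapdh, a gene used as a reference in many assays, had 0 reads in all 6 libraries. This value cannot be read as absence of the transcript. Of the 1346 windows of 75 bases in its principal transcript, 1081 (80.3%) also occurred in the transcripts of other genes, 121 of them, of which 114 are annotated as pseudogenes. These windows are shorter than the 150 bp paired-end reads, and the percent that whole reads or read pairs would share was not measured. Those 121 genes together held 147 reads. How the counting treated reads that align to several places is not stated, and its part in the zero was not tested. The coding window shared with the most genes, 49, covers bases 655 to 729 of the transcript, whose coding part runs from 241 to 1239, and is shown in lower case because all of it is shared.
Gapdh shared window (GRCm38 transcript, sense strand): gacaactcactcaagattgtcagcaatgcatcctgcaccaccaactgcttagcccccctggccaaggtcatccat

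Other genes with shared windows had both low and high counts. Ldhal6b, the testis lactate dehydrogenase A-like gene, had 100% of its windows in another gene and 0 reads, and Eno1, the widely expressed enolase, had 65.4% and 29 reads. Ppia had 51.0% of its windows in other genes and 4738 reads over the 6 libraries, Eef1a1 had 41.7% and 3557 reads, and Rplp0 27.4% and 5857 reads. Pfkl, the liver-type phosphofructokinase, had 0 reads with no window shared. These comparison genes were chosen after their values were seen. Among the 10 genes, Pgk1 was next after Gapdh with 67.5%, followed by Pkm with 19.6%, Pfkp with 16.6% and Ldha with 5.38%, while Hk1, Hk2, Pgk2 and Ldhc shared none. Gapdh and Pgk1 were thus the members of the 10 with the most shared sequence. The only gene sharing windows with Pfkp was Pitrm1, which overlaps its exons at the same place on the opposite strand. Gm49759, which overlaps Pkm exons, was among the 3 genes sharing windows with Pkm. Those shares are therefore not all sequence repeated elsewhere in the genome.

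**Figure D3:**
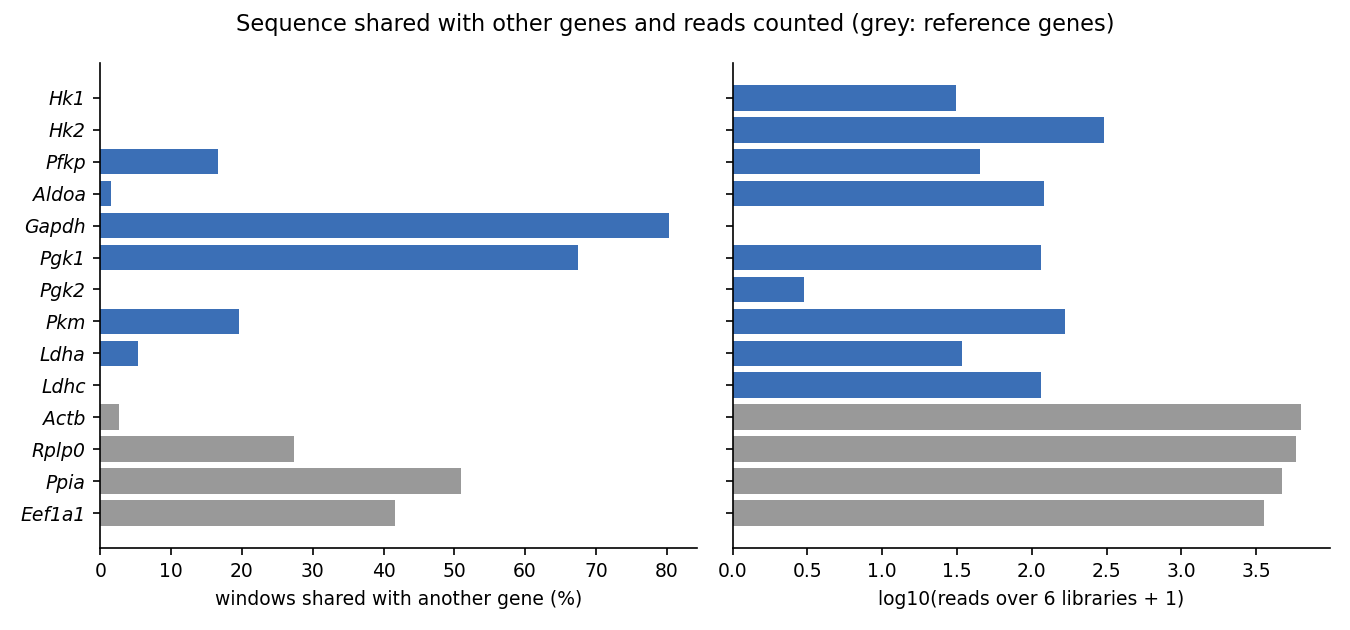
Percent of 75-base windows of the principal transcript that occur in another gene (left) and log10 of the reads over 6 libraries plus 1 (right), for the 10 glycolysis genes in blue and 4 reference genes in grey. Gapdh has the highest shared percent, 80.3%, and no read, and the reference gene with the highest shared percent is Ppia, with 51.0% and 4738 reads.

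Pgk1 had reads in every library, under the 3-read floor only in Eef1g-cKO replicate 1, and its levels varied more within Eef1g-cKO than between genotypes. It had 8, 22 and 25 reads in controls and 2, 54 and 4 in Eef1g-cKO, or 6.11, 11.5 and 14.0 CPM against 1.62, 21.2 and 6.18 CPM. Both the highest and the lowest value were Eef1g-cKO libraries, and the means were 10.5 ± 4.04 and 9.66 ± 10.2 CPM (SD, n = 3). Its log2FC was −0.04 ± 0.79 (SE, by edgeR, adjusted p = 0.979), and without Eef1g-cKO replicate 2 it was −1.55.

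Pgk2, its germ cell counterpart, was at the floor in both genotypes. It had 0 reads in 5 libraries and 2 reads in Eef1g-cKO replicate 2, so no fold is given. The log2 ratio of Pgk2 to Pgk1 reads averaged −5.08 ± 0.87 in controls and −3.31 ± 1.07 in Eef1g-cKO (SD, n = 3), a difference of 1.77 (exact 2-sided permutation test, p = 0.2, adjusted p = 0.45). That ratio reflects mainly Pgk1 and the 0.5 added to each count, because Pgk2 had no read in 5 of 6 libraries.

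Pkm, the pyruvate kinase found in most tissues outside the liver, was detected in every library, with overlap between genotypes. Its reads were 24, 44 and 33 in controls and 24, 33 and 7 in Eef1g-cKO, or 18.3, 23.1 and 18.5 CPM against 19.4, 12.9 and 10.8 CPM. Eef1g-cKO replicate 1 lay inside the control range and the other 2 below it (means 19.96 ± 2.72 and 14.4 ± 4.48 CPM (SD, n = 3)). Its log2FC was −0.46 ± 0.54 (SE, by edgeR, adjusted p = 0.628). Of its exon bases, 15.3% overlap Gm49759 on the same strand.

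Ldha, the somatic lactate dehydrogenase, had few reads and did not pass the filter. It had 7, 14 and 6 reads in controls and 2, 4 and 0 in Eef1g-cKO, or 5.34, 7.35 and 3.36 CPM against 1.62, 1.57 and 0 CPM. Each Eef1g-cKO library was below each control library. Fitted without a filter, its log2FC was −2.03 ± 1.47 (SE, adjusted p = 0.503 by edgeR), so the difference did not pass the test at this depth. Of the 6 tested genes 2, Hk2 and Aldoa, had CPM values that did not overlap between genotypes, in a table where 34.5% of all tested genes did not overlap.

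Ldhc, the germ cell lactate dehydrogenase, was read more often than Ldha in 5 of 6 libraries. It had 9, 22 and 34 reads in controls and 11, 38 and 0 in Eef1g-cKO, or 6.87, 11.5 and 19.0 CPM against 8.89, 14.9 and 0 CPM. Eef1g-cKO replicate 3, the shallowest library, had no read of either gene, and the other 2 lay within the control range (log2FC −0.52 ± 0.80 (SE), adjusted p = 0.726 by edgeR). The log2 ratio of Ldhc to Ldha averaged 1.13 ± 1.12 in controls and 1.77 ± 1.59 in Eef1g-cKO (SD, n = 3), a difference of 0.64 (exact 2-sided permutation test, p = 0.7, adjusted p = 0.70). Without Eef1g-cKO replicate 3 the difference was 1.52, and without Eef1g-cKO replicate 2 it was −0.03.

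Added together, the 10 genes made up 146.5, 133.9 and 132.7 CPM in controls and 54.2, 59.2 and 40.2 CPM in Eef1g-cKO. The sum was lower in every Eef1g-cKO library, with means of 137.7 ± 7.69 and 51.2 ± 9.87 CPM (SD, n = 3). Hk2 made up the largest share in each control library. In Eef1g-cKO the largest was Pkm by mean and in replicate 1, Pgk1 in replicate 2 and Pfkp in replicate 3. Without Hk2 the means were 81.9 ± 4.23 and 42.4 ± 11.9 CPM. That remainder still holds Aldoa, the other gene called lower, with means of 23.9 CPM in controls and 0.78 CPM in Eef1g-cKO. It is therefore not a measure of the genes that were not called.

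Markers of cells other than L/Z spermatocytes also differed between the genotypes and are set beside the Hk2 and Aldoa values. By staining sorted cells for SYCP3 and γH2AX, the authors found similar shares of L/Z spermatocytes in both genotypes, with no significant difference. The summed level of 13 spermatogonial markers was 1517 to 1746 CPM in controls and 706 to 844 CPM in Eef1g-cKO, with 0 of 6 tested genes higher and 5 lower. Zbtb16, which defines undifferentiated spermatogonia, had 14, 7 and 29 reads in controls and 0, 2 and 2 in Eef1g-cKO. Both lay in the direction of Hk2 and Aldoa.

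Peritubular and stromal markers (8 genes) summed to 188 to 322 CPM in controls and 23.2 to 79.2 CPM in Eef1g-cKO, with 0 of 5 tested genes higher and 4 lower, and Acta2, the smooth muscle actin, had 30, 10 and 7 reads against 0, 21 and 4. Markers of pachytene and later cells, 14 of 15 in the table, summed to 178 to 238 CPM and 150 to 187 CPM, with 0 of 5 tested higher and 1 lower, and Piwil1 had 34, 22 and 30 reads against 0, 1 and 0. Sertoli markers (10 genes) summed to 357 to 523 CPM and 353 to 406 CPM, with 0 of 4 tested higher and 1 lower. Most of that sum was Ctsl, at 270 to 350 CPM in controls and 323 to 405 CPM in Eef1g-cKO. Without Ctsl the other 9 Sertoli genes summed to 64.1 to 187 CPM in controls and 1.54 to 32.5 CPM in Eef1g-cKO, which do not overlap and lie in the direction of Hk2 and Aldoa. Their defining gene Amh was at 0 in 5 of 6 libraries.

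Leydig markers (6 genes) summed to 8.40 to 10.7 CPM in controls and 1.57 to 6.47 CPM in Eef1g-cKO, with none tested, and Star had 14, 18 and 11 reads against 8, 4 and 2. Blood and macrophage markers (8 genes) summed to 7.28 to 77.9 CPM and 3.23 to 75.7 CPM, with 0 of 1 tested called, and Ptprc had at most 2 reads in a library. Some of the markers called lower, such as Piwil1, Col3a1 and Cldn11, passed the filter through their control libraries, as Hk2 and Aldoa did. The counts of lower markers are therefore a description and not support. The part of these cell types in the lower Hk2 and Aldoa levels was not tested.

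For context, 51 other genes of the pathway were examined, of which 41 had a read and 22 were tested. Of these, 2 were called higher, 1 was called lower and 19 were neither, and their median log2 fold change was 0.01. The single lower gene and neither higher gene also passed the fold limit. At an unadjusted p under 0.05 the counts were 2 higher and 4 lower of 22, where 14.3% of all tested genes were higher and 13.2% lower. The CPM values of 8 of the 22 genes did not overlap between genotypes, a share near the 34.5% of all tested genes.

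**Figure D4:**
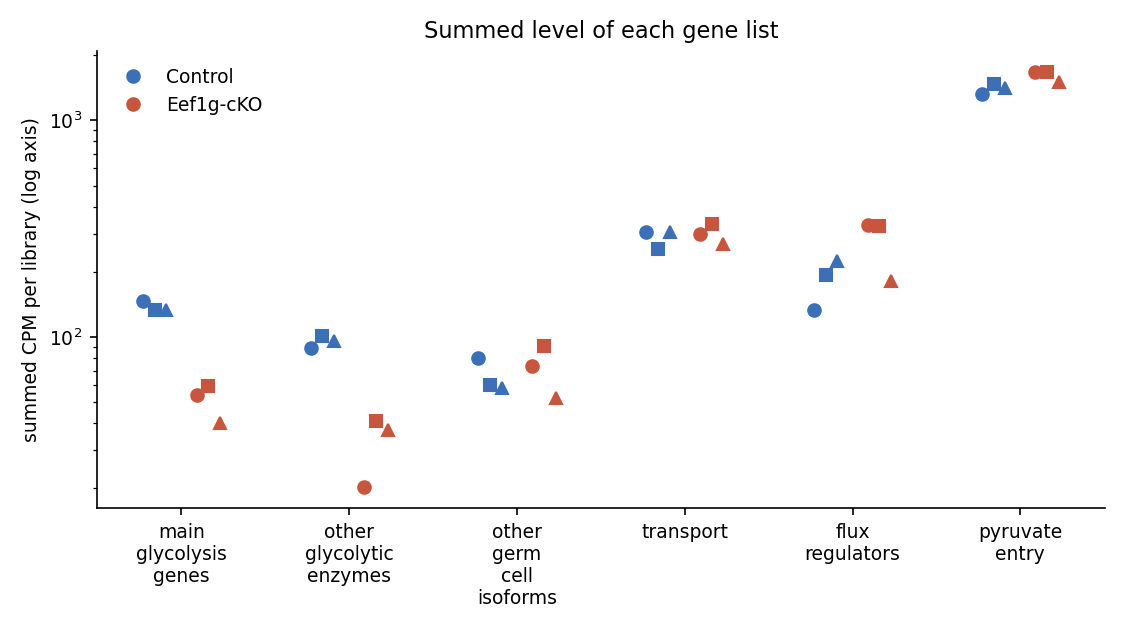
Summed CPM of each gene list in every library on a log axis, blue for control and red for Eef1g-cKO, with circle, square and triangle for replicates 1 to 3. The main glycolysis genes and the other glycolytic enzymes were lower in every Eef1g-cKO library, whereas the transport list overlapped and pyruvate entry was higher in each, a difference that turned into overlap with library totals in place of TMM.

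The other glycolytic enzymes (17 genes, 11 with a read, 4 tested) gave 0 higher and 0 lower calls by edgeR, with 0 higher and 1 lower at an unadjusted p under 0.05. DESeq2 called Eno3 lower. Their sum was 95.4 ± 6.44 CPM in controls and 32.7 ± 11.0 CPM in Eef1g-cKO (SD, n = 3). Ldhb, the heart-type lactate dehydrogenase, had the highest level per length of this list in controls, 9.92 ± 9.45 CPM per kilobase. It had 12, 62 and 9 reads in controls and 0, 3 and 0 in Eef1g-cKO. Its control mean of 15.6 CPM, from values of 9.16, 32.5 and 5.04 CPM, was 5.68 times the mean Eef1g-cKO floor. Control replicate 2 supplied most of those reads and the gene did not pass the filter.

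Most of the other germ cell isoforms were at or near 0 reads. Aldoart1, Aldoart2 and Ldhal6b, testis forms of aldolase and lactate dehydrogenase, had no read, and Gapdhs, the sperm form of Gapdh, had 2 reads, both in Eef1g-cKO replicate 2. Eno4, the sperm enolase, had 25, 4 and 14 reads in controls and 4, 13 and 0 in Eef1g-cKO. Counts of 0 for Aldoart1 and Aldoart2 allow the same 1.18 to 4.63 CPM as above. For Ldhal6b, all of whose windows occur in another gene, the 0 sets no such limit, since the treatment of multiply aligned reads is not stated. For Gapdh this applies to the 80.3% of its windows that are shared and not to the rest.

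Pdha2, the intronless germ cell form of the pyruvate dehydrogenase E1 alpha subunit, was the most read of these isoforms. It had 80, 110 and 90 reads in controls and 87, 217 and 34 in Eef1g-cKO, or 56.4 ± 5.47 against 69.3 ± 16.3 CPM (SD, n = 3). Ranges overlapped (log2FC 0.32 ± 0.30 (SE), adjusted p = 0.543 by edgeR). Its somatic counterpart Pdha1, named after its values were seen, had 3, 21 and 15 reads in controls and 2, 1 and 0 in Eef1g-cKO and did not pass the filter.

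Among 8 transport genes, 4 were tested, with 0 higher and 1 lower. Slc2a3, the high-affinity glucose transporter GLUT3, had 18, 31 and 18 reads in controls and 4, 0 and 0 in Eef1g-cKO, all below the controls. Slc2a3 passed the filter through its control libraries. Its mean fell from 13.4 ± 3.12 to 1.08 ± 1.87 CPM (SD, n = 3), and log2FC was −3.61 ± 1.11 (SE, adjusted p = 0.0352 by edgeR). The call was lost without control replicates 1, 2 or 3 or without Eef1g-cKO replicates 2 or 3 (adjusted p of 0.0515 to 0.175) and under the replicate block (0.0647), and without Eef1g-cKO replicate 1 the log2 fold change was −7.45. Bsg, the chaperone of lactate transporters, had the highest level per length of the list in controls, 46.1 CPM per kilobase, with 83.7 ± 9.05 against 86.6 ± 22.1 CPM (log2FC 0.07 ± 0.28 (SE), adjusted p = 0.897 by edgeR).

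Among 7 flux regulators, 4 were tested, with 1 higher and 0 lower. Hif1a, the oxygen-regulated subunit of hypoxia-inducible factor, stood at 84.0, 130 and 150 CPM in controls and 268, 277 and 148 CPM in Eef1g-cKO. Eef1g-cKO replicate 3 lay within the control range and the other 2 above it. Hif1a rose by 0.94 ± 0.26 on the log2 scale (SE, edgeR adjusted p = 0.0210, n = 3 per genotype). The call was lost without control replicates 1 or 2 or without Eef1g-cKO replicates 1 or 2 (adjusted p of 0.0600 to 0.121), with library totals (0.0933), in thinned libraries (0.0636) and with the GC content offset (0.0540). It also had the highest level per length of its list in controls, 20.6 CPM per kilobase.

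Pyruvate entry genes, the mitochondrial pyruvate carrier and the pyruvate dehydrogenase complex with its kinases and phosphatases, were the most abundant list. Of 13 genes, 9 were tested, with 1 higher and 0 lower, and their sum was 1402 ± 73.1 CPM in controls and 1619 ± 106 CPM in Eef1g-cKO (SD, n = 3). Scaled by library totals alone, the sums overlapped, at 1371 to 1526 CPM in controls and 1270 to 1636 CPM in Eef1g-cKO. Dld, the E3 subunit of the complex, stood at 202, 232 and 195 CPM in controls and 409, 364 and 314 CPM in Eef1g-cKO, all above the controls. Dld rose by 0.79 ± 0.18 on the log2 scale (SE, edgeR adjusted p = 0.00611). Pdhb, the E1 beta subunit, had the highest level per length in controls, 80.7 CPM per kilobase, with 312 ± 32.1 against 340.0 ± 33.0 CPM (log2FC 0.13 ± 0.17 (SE), adjusted p = 0.674 by edgeR).

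Finally, genes whose log2 CPM across the 6 libraries was most like that of 2 of the 10 were listed from 4713 tested genes that averaged 50 reads or more. For Aldoa, the gene with the largest fold change, these were Rpl22 (Pearson r = 0.998), Stmn1 (0.997) and Trrap (0.997). All 3 were lower in Eef1g-cKO, and the 6 points fall into the 2 genotypes, so r largely restates that split. For Ldhc, the highest of the 10 per length over all libraries, they were Ppia (0.997), Rab9 (0.992) and Bmpr1a (0.987), none of which was called. With 6 libraries, r values this high are the extremes of a long list and are given as a description.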

How the data were processed

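RNA was measured in 6 libraries of sorted L/Z spermatocytes (12 dpp, 3 control and 3 Eef1g-cKO), made from polyadenylated RNA by low-input full-length cDNA amplification and 150 bp paired-end sequencing. The authors trimmed reads with fastp, aligned them to GRCm38 (mm10) with HISAT2 and counted them per gene with featureCounts. The deposited table gives unnormalised read counts for each library and gene, with the gene's length as a further column. Strand setting and the treatment of multiply aligned reads are not given in the sources used here. No molecular identifiers were used, so floors cover counting error only.

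Genotypes were compared by edgeR 4.0.16 (R 4.3.3). filterByExpr (minimum count 10, minimum total 15) left 8513 of 54532 genes, holding 98.1% of reads. TMM scaling, the robust quasi-likelihood F test with genotype as the only term and Benjamini-Hochberg adjustment over all tested genes were used, and a call needed an adjusted p under 0.05. The SE of a log2 fold change is its absolute value divided by the square root of F. The fit was tested on simulated data with 200 changed genes. Isoform ratios were compared by exact permutation (SciPy 1.17.1). No libraries agreed within sampling noise (chi-square per degree of freedom at least 6.37).

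Promoters came from the RefSeq table (GRCm38.p6) and transcripts from GENCODE M21, which held 54409 of the gene IDs. Windows of 75 bases of each principal transcript were searched in all other genes' transcripts.

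The 10 genes and all lists were chosen with earlier results of these data known. Named genes are the 10, Eef1g, and of the other lists each called gene, each germ cell isoform and the gene with the highest level per length in controls, with the defining cell type markers and, for 2 of the 10, the 3 genes most like them over the libraries. Alternatives were scaling by RLE, by upper quartiles or by library totals, other low-count filters, DESeq2 1.42.0, limma-voom (limma 3.58.1), a replicate block, removal of mitochondrial and rRNA genes, thinning to 763133 reads, leaving out each library and, chosen after seeing the data, a GC content offset.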

Additional observations from a re-analysis of the deposited data

How the results depend on the processing

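The count of 2 lower and 0 higher among the 10 genes was the same under all 17 alternatives that gave one. With a filter of at least 10 reads in every library none of the 10 could be fitted, and that filter gave no value for them. Hk2 and Aldoa stayed past the threshold in 16 of 16 alternative fits, with log2 fold changes of −2.92 to −2.44 and −5.56 to −4.65 across settings and −3.73 to −2.14 and −6.07 to −4.34 when 1 library was left out. The median of the tested genes ran from −1.57 to −0.21 across settings, the former from 4 genes in thinned libraries, and from −1.41 (without Eef1g-cKO replicate 2) to −0.40 with 1 library left out. Upper-quartile scaling moved the median of all genes by −0.12, library totals by −0.19 and a filter of 10 reads in every library by −0.14. The genes that changed sign did not pass the threshold in any setting. Pgk1 turned to 0.000689 without a filter and to 0.13 with the GC content offset, and ran from −1.55 to 0.49 with 1 library left out (0.02 and 0.20 without control replicates 2 and 3, 0.49 and 0.21 without Eef1g-cKO replicates 1 and 3). Pkm turned to 0.0132 with the GC content offset. Pfkp ran from −0.93 to 0.82 with 1 library left out (−0.28 without control replicate 3). Bsg turned to −0.0503 under upper quartiles, −0.105 under library totals and −0.0600 with 10 reads in every library, and ran from −0.132 (without Eef1g-cKO replicate 2) to 0.257 with 1 library left out, and Pdhb turned to −0.0573 under library totals and −0.00903 with 10 reads in every library. The Ldhc to Ldha difference ran from −0.0268 to 1.52 with 1 library left out.

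Of the other pathway genes, 2 were called higher. That count was 0 with the fold limit, 1 with library totals, thinned libraries or the GC content offset, where Dld remained and Hif1a did not, and 1 to 2 with 1 library left out. The count of lower genes, 1, became 2 without a filter (Ldhb with Slc2a3), with DESeq2 (Eno3) or with limma-voom (Gpi1), 0 with 10 reads in every library or thinned libraries, and 0 to 3 with 1 library left out (3 without Eef1g-cKO replicate 1). The cause of these changes was not tested. Control and Eef1g-cKO share replicate numbers, but same-numbered libraries did not deviate together (r = −0.04, 0.02 and −0.05 for numbers 1 to 3). With 3 libraries per genotype, these values cannot exclude that same-numbered samples share a litter or a preparation. With the replicate block, Hk2 was −2.92 (edgeR adjusted p = 0.00275), Aldoa −5.31 (0.00423), the lower count among other pathway genes 0, and the isoform differences were unchanged in size, at 1.77, 0.64 and −1.69. At least 1 library had 3 reads or fewer for each of the 10 genes except Hk2 and Pkm, which limits their values.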
